A study of Mus musculus with 9 samples.

Results

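The genes followed here were the long intergenic noncoding RNAs (lincRNAs) expressed in mouse liver before and after partial hepatectomy. A gene was a member when the deposited table gave it the biotype lincRNA and a raw count of 20 or more in at least 3 of the 9 libraries, with *H19* set aside. This held for 187 of 2998 lincRNA rows, in a table of 43346 genes. A further 1982 lincRNA rows had no count in any library and 829 had at least 1 count without being members. Members were thus chosen by their counts over all 3 groups, so membership is not a finding: 109 members reached 20 in all 9 libraries, 6 reached it in baseline libraries alone and 16 in libraries from 40 hours alone. *H19* reached 20 in 1 library. Just inside the limit were *1700061I17Rik*, *Gm16576* and *Gm16998*, which had 20 at the highest count that at least 3 libraries reached, and just outside were *B230217O12Rik*, *E230001N04Rik* and *Gm14319*, with 19.

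A lincRNA is a long RNA, usually transcribed by RNA polymerase II, that carries no long open reading frame and in principle lies between protein-coding genes. Biotypes change between annotations: in the later GENCODE M21, 122 of the 187 members were lincRNA, 19 bidirectional promoter lncRNA, 14 antisense, 12 processed transcript, 2 protein-coding, 2 pseudogene, 1 snoRNA and 1 sense intronic, and 14 had no identifier. In the deposited coordinates 38 members overlapped a protein-coding gene. Some are nuclear scaffolds, such as *Malat1* of nuclear speckles and *Neat1* of paraspeckles. Others are hosts from which small nucleolar RNAs (snoRNAs) or microRNAs are cut, and many start beside a protein-coding gene and share its promoter region. Most are expressed at lower levels and in fewer tissues than messenger RNAs, and in the liver lincRNAs have been tied to metabolism, imprinting and cell proliferation.

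The study asked how NSC-87877 (NSC), an inhibitor of the phosphatase SHP2 that also inhibits SHP1, alters regeneration after removal of 70% of the liver. Whole livers of male mice aged 12 weeks, of strain C57/BL6 by the labels and C57BL/6J by the study's methods, were profiled by polyadenylated RNA-Seq. The baseline group was the liver resected at 0 hours from 3 vehicle-treated mice, and the vehicle group was the remnant of 3 vehicle-treated mice 40 hours after hepatectomy. The NSC group was the remnant of 3 mice at 40 hours that received NSC at 7.5 mg/kg per dose, 2 times daily, from 12 hours before surgery by the labels (1 day before by the study's methods). The vehicle was normal saline, and no NSC-treated liver from 0 hours was analysed here, so NSC at 40 hours against baseline joins the effects of surgery, time and drug. The labels do not say whether a baseline and a remnant sample came from the same mouse. P-values measure the spread between these livers.

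Gene counts totaled 23997363 to 42887589 per library, at which 3 counts correspond to 0.07 to 0.125 CPM, the count scaled to the size of the library. The 8 hepatocyte marker genes summed to 125979 to 181193 CPM, so that every library had the labeled tissue. NSC replicate 1 stood apart from its group: on the second principal component of all tested genes it lay at -31.01, beside the vehicle livers (-28.13 to -13.44), while NSC replicates 2 and 3 lay at 32.49 and 54.02. Its summed macrophage markers were 708 CPM against 419 and 452 in NSC replicates 2 and 3, and its stellate and fibroblast markers were 506 against 269 and 291. It lay more than 3-fold outside both other NSC livers for 9 members, among those with 20 or more counts in an NSC liver, below them for 7. The counts of members called with NSC at an adjusted p under 0.05 are also given without that liver, and other NSC counts include it. With vehicle, 7 of 10 stellate and fibroblast markers, 4 of the 6 cholangiocyte markers tested, 2 of 12 macrophage and 2 of the 6 neutrophil markers tested rose, and 3 of 8 endothelial and 2 of the 8 lymphocyte markers tested fell. With NSC, 3, 3, 5 and 4 of the same rising lists rose, and 1 endothelial and 1 lymphocyte marker fell. Of all genes tested, 12.7% rose and 11% fell with vehicle, and 18.2% and 16.5% with NSC. The part of such shifts in the lincRNA results was not tested, and in whole liver fewer cells of a type cannot be told apart from less RNA per cell.

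Sequences are given for the members on which the results turn. *Mir17hg*, on chr14:115042879-115046727 (GRCm38, plus strand), rose after hepatectomy and is the host transcript of the miR-17 to miR-92 cluster, a group of 6 microRNA hairpins known for promoting cell cycle entry. The libraries measured the host transcript, not the mature microRNAs. The main mature arms are shown from RefSeq (GRCm38.p6), 5′ to 3′, with the seed (bases 2 to 8, which pair with targets) in capitals. The first pair shares 1 seed, miR-18a differs from it within the seed, miR-19a and miR-19b share another, and miR-92a has its own.
mmu-miR-17-5p: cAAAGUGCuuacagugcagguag
mmu-miR-20a-5p: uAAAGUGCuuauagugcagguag
mmu-miR-18a-5p: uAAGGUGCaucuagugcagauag
mmu-miR-19a-3p: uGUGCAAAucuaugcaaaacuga
mmu-miR-19b-3p: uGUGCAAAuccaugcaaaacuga
mmu-miR-92a-3p: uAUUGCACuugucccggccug

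Promoter windows, from 250 bases before to 50 after a gene's start, were found in RefSeq (GRCm38.p6) for 101 of the 187 members. A set of 5 is shown from lincRNAs that changed in both groups at 40 hours, and each window shown holds a motif that was searched for. Other members called in both groups, such as *Gm15411*, *Gm15348* and *Gm17767*, had windows with no such motif, so the set does not stand for all changed members. Capitals mark the motif found by a search of both strands: the TATA box TATAAA, the CRE TGACGTCA, the cell cycle genes homology region (CHR) TTTGAA or the E-box CACGTG. A match describes the letters and is not a binding site. The first 3 belong to lincRNAs that rose: *9430037G07Rik* at chr9:88599194-88599493 (minus strand), *4930558J18Rik* at chr1:57377495-57377794 (minus strand) and *1190002F15Rik*, which RefSeq names *Lockd*, at chr6:134928842-134929141 (plus strand). The window of *9430037G07Rik* follows the RefSeq start and lies wholly inside the gene by its deposited coordinates, so its TATA box is downstream of the deposited start. The last 2 belong to lincRNAs that fell: *9030622O22Rik* at chr2:148040299-148040598 (minus strand), whose TATA box is on the opposite strand, and *1810008I18Rik* at chr7:65802787-65803086 (plus strand). The TATA match of *9030622O22Rik* lies after the RefSeq start, and its window lies wholly upstream of the gene by its deposited coordinates.
9430037G07Rik: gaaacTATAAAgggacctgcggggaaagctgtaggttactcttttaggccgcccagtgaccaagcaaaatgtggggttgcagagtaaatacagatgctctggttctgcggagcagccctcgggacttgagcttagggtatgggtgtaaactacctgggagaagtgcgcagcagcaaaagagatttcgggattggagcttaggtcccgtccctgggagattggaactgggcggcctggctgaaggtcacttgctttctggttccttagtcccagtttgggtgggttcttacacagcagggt
4930558J18Rik: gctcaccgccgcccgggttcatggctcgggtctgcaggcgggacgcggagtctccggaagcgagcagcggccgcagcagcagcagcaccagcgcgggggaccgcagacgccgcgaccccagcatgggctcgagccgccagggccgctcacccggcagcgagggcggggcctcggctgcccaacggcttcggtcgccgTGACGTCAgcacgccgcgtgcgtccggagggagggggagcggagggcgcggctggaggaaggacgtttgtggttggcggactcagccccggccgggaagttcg
1190002F15Rik (Lockd): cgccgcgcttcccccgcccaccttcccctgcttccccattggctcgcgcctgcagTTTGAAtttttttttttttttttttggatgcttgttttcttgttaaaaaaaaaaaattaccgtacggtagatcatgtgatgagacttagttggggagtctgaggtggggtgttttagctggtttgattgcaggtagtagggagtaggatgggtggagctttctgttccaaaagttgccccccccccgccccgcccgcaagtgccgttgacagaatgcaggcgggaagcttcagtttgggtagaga
9030622O22Rik: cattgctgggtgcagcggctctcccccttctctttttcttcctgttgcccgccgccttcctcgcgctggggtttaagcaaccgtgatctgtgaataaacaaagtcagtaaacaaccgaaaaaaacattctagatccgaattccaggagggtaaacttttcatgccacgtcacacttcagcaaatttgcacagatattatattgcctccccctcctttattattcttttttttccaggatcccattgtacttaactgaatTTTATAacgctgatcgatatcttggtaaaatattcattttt
1810008I18Rik: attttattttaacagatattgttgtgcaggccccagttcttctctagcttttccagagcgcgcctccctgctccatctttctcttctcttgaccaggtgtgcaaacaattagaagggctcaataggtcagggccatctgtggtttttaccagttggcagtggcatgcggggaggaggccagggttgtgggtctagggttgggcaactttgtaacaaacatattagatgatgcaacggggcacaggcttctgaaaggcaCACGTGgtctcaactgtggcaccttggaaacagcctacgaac

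Over the 101 promoter windows, the CRE was held by 8 (7.92%), against 1.79% of 32851 RefSeq promoters. The E-box was held by 12 (11.9%, against 7.15%), the ETS motif CCGGAAGT by 7 (6.93%, against 3.89%), the CHR by 17 (16.8%, against 17.9%) and the TATA box by 14 (13.9%, against 13.6%). The E2F motif TTTGGCGC was in 1 window, and the E2F motif TTTCCCGC and the HNF4 motif CAAAGTCCA were in none. The member windows had a median GC content of 57.3%, against 52.7% over all promoters, and GC-rich motifs such as the ETS motif share that composition. Of the 8 windows from members that rose in both groups at 40 hours, 1 held the CRE and 2 the CHR. Of the 22 from members that fell in both, 6 held the TATA box and none held the CRE.

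Members were low in abundance. Per length, as FPKM (fragments scaled to transcript length and library size), the median level over the 9 libraries ranged from 0.0807 (*Meg3*, an imprinted lincRNA) to 108 (*Yam1*), with a median over members of 0.867. The 13264 protein-coding genes tested had a median of 3.3 FPKM. A median of more than 1 FPKM was reached by 80 members (42.8%) and by 9821 protein-coding genes (74%), and 10 members exceeded 10 FPKM. Members took 0.172 ± 0.00661% of all counts at baseline, 0.145 ± 0.0172% in vehicle livers and 0.16 ± 0.00846% in NSC livers (mean ± SD, n = 3 each), and *Malat1*, *Yam1* and *Neat1* held 44.4 to 53% of those. Transcripts were 280 to 20771 bases long, with a median of 2138, and had a median of 3 exons, against 2857 bases and 6 exons for protein-coding rows.

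**Figure D1:**
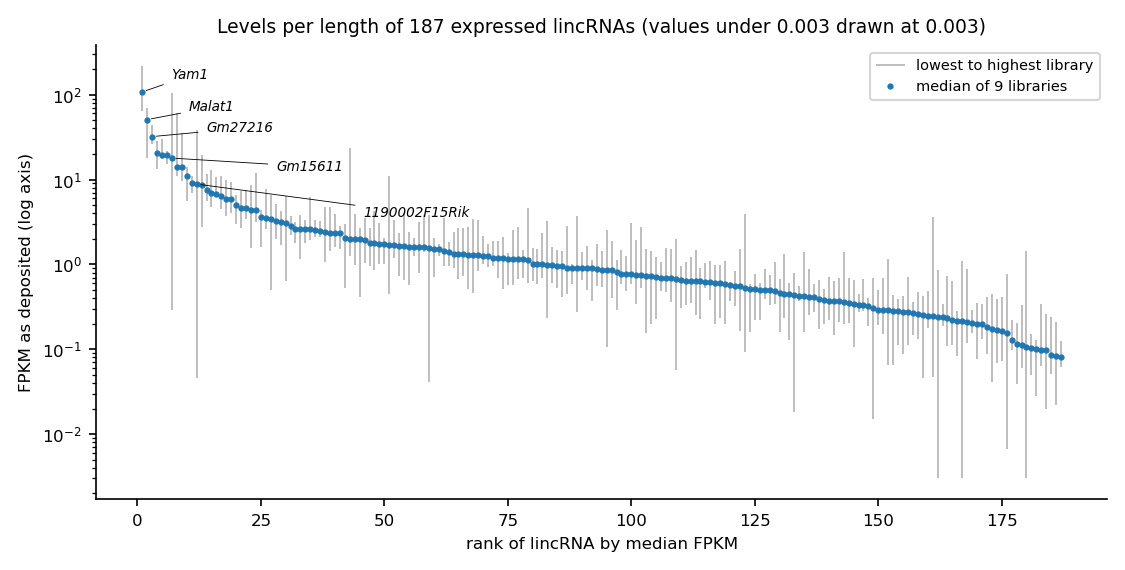
Level per length (FPKM as deposited, log axis) of each of the 187 lincRNAs, in order of its median over 9 libraries; points are medians and lines run from the lowest to the highest library. Medians fall from 108 for *Yam1* to 0.0807, and *1190002F15Rik* and *Gm15611* have lines that reach far below their medians.

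The 8 members with the highest median FPKM were *Yam1* (108), *Malat1* (50.8), *Gm27216* (32), *Gm8883* (20.7), *C330006A16Rik* (19.7), *1810058I24Rik* (19.5), *Gm15611* (17.9) and *1810008I18Rik* (14.1). *Yam1* lies where the later GENCODE M21 annotation has *Gm42418*, a locus known to collect reads of ribosomal RNA, so its level is uncertain. The rank pools groups that can differ: *Gm15611* had a group median of 5.04 FPKM at baseline, 55.5 in vehicle and 55.6 in NSC livers. Its log2 fold change was 3.53 ± 1.06 with vehicle (adjusted p = 0.0505) and 3.76 ± 1.06 with NSC (adjusted p = 0.0312), the latter lost without any 1 of 6 libraries (NSC replicates 1 and 2, the 3 baseline livers and vehicle replicate 1; adjusted p of 0.0575 to 0.092). *Yam1* had a group median of 130 FPKM at baseline, 84.7 in vehicle and 108 in NSC livers, and it was not called in any comparison. *Malat1* was 509, 417 and 403 CPM at baseline, 319, 297 and 366 in vehicle and 383, 259 and 119 in NSC livers. All 6 livers at 40 hours lay below the 3 baseline livers, yet neither difference was called (log2 fold change -0.44 ± 0.33 [SE] and -0.80 ± 0.33, edgeR adjusted p = 0.37 and 0.0823). Without NSC replicate 1 the second was -1.23 (adjusted p = 0.00603). *Malat1* also lacks a regular poly(A) tail, as does the long isoform of *Neat1*, which limits what poly(A)-selected libraries show of them. *Neat1* ranged from 120 to 247 CPM at baseline, 220 to 256 in vehicle and 130 to 284 in NSC livers, with full overlap between baseline and NSC. *1810058I24Rik* was the steadiest of the 8, at 52.8 ± 9.28, 52.5 ± 3.25 and 53.9 ± 3.2 CPM (SD, n = 3) at baseline, in vehicle and in NSC livers.

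At 40 hours in vehicle-treated mice, more lincRNAs had fallen than risen. The test was edgeR's quasi-likelihood test with Benjamini-Hochberg adjustment over all 15024 genes tested, and a member rose or fell at an adjusted p under 0.05. All 187 members passed the filter on low counts, partly because the rule itself asks for counts in 3 libraries. Of these, 15 rose (8.02%) and 41 fell (21.9%), beside 12.7% of all genes tested that rose and 11% that fell, or 56 members called (29.9%) beside 23.7% of genes. The falls numbered 25 without vehicle replicate 1 and 27 without vehicle replicate 2. The shares of all genes called in these reduced fits are not given, so the drop is not read as particular to lincRNAs. The median log2 fold change of members was -0.23, and of all genes 0.01. Beyond a log2 fold change of 1.5 in size, 14 members rose (background 5.03%) and 16 fell (background 2.19%), 30 in all (background 7.22%). At an unadjusted p under 0.05, 88 members differed (47.1%, background 37%). The groups did not overlap, 3 livers against 3, for 27 members that were higher (background 24.2%) and 67 that were lower (background 22%), 94 in all (background 46.3%). The 22 members that reached 20 counts only at baseline or only at 40 hours were in part selected for a difference. They supply 8 of the rises and 5 of the falls. Among them, *1190002F15Rik*, *2010110K18Rik*, *4930558J18Rik*, *Gm17767* and *Gm26737* reached 20 only at 40 hours. *Gm12718*, *Gm16755* and *Gm15411* reached it only at baseline. The calls and ranks of these members, described below, were in part set by the rule. Among the 109 members at 20 or more in all libraries, 5 rose and 26 fell.

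**Figure D2:**
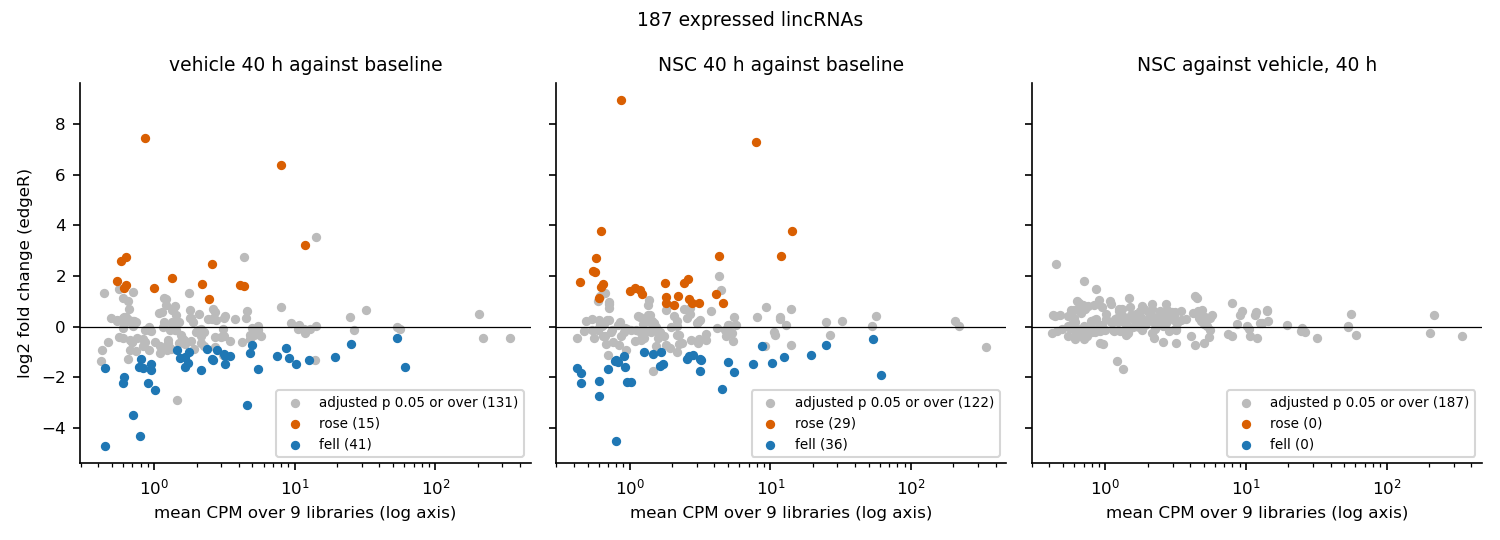
Log2 fold change against mean CPM over 9 libraries (log axis) for the 187 lincRNAs in the 3 comparisons; colored points have an edgeR adjusted p under 0.05. With vehicle 15 rose and 41 fell, with NSC 29 rose and 36 fell, and between the groups at 40 hours none was called; the highest point in the first 2 panels, *2010110K18Rik*, had no count at baseline, so its fitted fold is not a measured one.

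*9430037G07Rik*, a lincRNA on chr9:88595325-88599516 that holds the snoRNA gene *Gm23017*, had the smallest p among rising members. It was 2.15, 1.95 and 2.08 CPM at baseline, 15.8, 16.7 and 25.6 in vehicle and 7.02, 23.7 and 12.2 in NSC livers. Every liver at 40 hours was above every baseline liver, and NSC replicate 1 was the lowest of the 6. The log2 fold change was 3.23 ± 0.42 with vehicle (adjusted p = 0.000803) and 2.79 ± 0.41 with NSC (adjusted p = 0.001), the latter 3.12 without NSC replicate 1.

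*Mir17hg* was 1.17, 1.56 and 0.857 CPM at baseline, 2.65, 3.91 and 4.24 in vehicle and 5.19, 11.2 and 8.25 in NSC livers. The 3 groups did not overlap, in the order baseline, vehicle, NSC. Against baseline the log2 fold change was 1.58 ± 0.34 with vehicle (adjusted p = 0.00587) and 2.77 ± 0.34 with NSC (adjusted p = 0.000188), both relative to the same 3 baseline livers. It was the 1 member that rose among the 10 that hold a microRNA hairpin inside them on the same strand, 18 hairpins in all, beside 12.7% of all genes that rose with vehicle and 18.2% with NSC. The other hosts, *Gm27028* (miR-30c), *A330023F24Rik* (miR-29b and miR-29c), *E130102H24Rik* (miR-101a), *2900076A07Rik*, *mmu-mir-191*, *2810008D09Rik*, *Meg3*, *6720427I07Rik* (let-7d) and *Ftx*, were not called in either comparison with baseline, and the median log2 fold change of the 10 was 0.21 with vehicle and 0.19 with NSC.

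*1190002F15Rik* (*Lockd*), on chr6:134929092-134951718, is transcribed 3579 bases downstream of *Cdkn1b*, the gene of the CDK inhibitor p27, and on the same strand. It was near the counting limit at baseline, with 2, 6 and 1 raw counts (0.0631, 0.183 and 0.033 CPM). It reached 8.05, 10.1 and 6.46 CPM in vehicle livers and 1.92, 19.7 and 25.2 in NSC livers. All livers at 40 hours were above baseline, but NSC replicate 1 lay below the vehicle livers and the other 2 NSC livers lay above them. The log2 fold change was 6.38 ± 1.17 with vehicle (adjusted p = 0.00747) and 7.30 ± 1.17 with NSC (adjusted p = 0.00292), the latter 7.83 without NSC replicate 1. *Cdkn1b* itself was 12.4 ± 1.63 CPM at baseline, 15.5 ± 1.62 in vehicle and 25.3 ± 8.31 in NSC livers, a log2 fold change of 0.32 with vehicle (adjusted p = 0.339) and 1.02 with NSC (adjusted p = 0.00511).

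*2010110K18Rik* had no count in the 3 baseline livers, 23, 27 and 20 counts in vehicle livers and 8, 90 and 62 in NSC livers. Set against a floor of 3 counts in each baseline library, its mean CPM was at least 7.06-fold higher with vehicle and at least 20.1-fold higher with NSC (adjusted p = 0.015 and 0.00306). Of the NSC livers, replicate 1 was again the lowest, at 0.24 CPM against 3.05 and 2.43, and the call was kept without it (adjusted p = 3.61e-06). *4930558J18Rik* had 2, 0 and 6 counts at baseline. It was 0.725, 0.673 and 0.369 CPM in vehicle livers and 0.45, 1.53 and 1.64 in NSC livers, all above the baseline values of up to 0.198. Its log2 fold change was 2.76 ± 0.80 with vehicle (adjusted p = 0.026) and 3.75 ± 0.78 with NSC (adjusted p = 0.00346; 4.16 without NSC replicate 1). The vehicle call was lost without baseline replicate 1 (adjusted p = 0.092) or 2 (0.0648) or vehicle replicate 1 (0.0751) or 2 (0.0664).

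*Snhg18*, which holds the box C/D snoRNA *Snord123*, was 0.789, 1.31 and 0.956 CPM at baseline and 3.88, 2.49 and 3.39 in vehicle livers, a log2 fold change of 1.67 ± 0.35 (adjusted p = 0.00502). NSC livers, at 3.42, 1.87 and 1.72 CPM, were also above baseline, with 1.20 ± 0.35 (adjusted p = 0.0191), a call lost without NSC replicate 1 (0.81, adjusted p = 0.0709) or baseline replicate 1 (adjusted p = 0.0732) or 3 (0.066). *1200007C13Rik*, on chr2:167827693-167833646, rose with vehicle alone among the 8 leading risers. It was 0.663, 0.885 and 0.495 CPM at baseline, 2.33, 3.83 and 1.48 in vehicle and 0.809, 0.611 and 0.978 in NSC livers. The vehicle livers were above all 6 others, with a log2 fold change of 1.90 ± 0.40 against baseline (adjusted p = 0.00554), while NSC and baseline livers overlapped (0.22 ± 0.42, adjusted p = 0.71).

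The other 3 leading risers with vehicle were *1700001L05Rik* (log2 fold change 1.65 ± 0.39), *Gm17767* (1.53 ± 0.36) and *Gm15348* (2.48 ± 0.59), with adjusted p of 0.0101, 0.0103 and 0.0128. The 3 vehicle livers were above the 3 baseline livers for each. *Gm15348* was carried most by vehicle replicate 3, at 7.45 CPM against 2.38 and 2.85, and its log2 fold change was 1.81 without that liver, with the call kept (adjusted p = 0.0431).

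**Figure D3:**
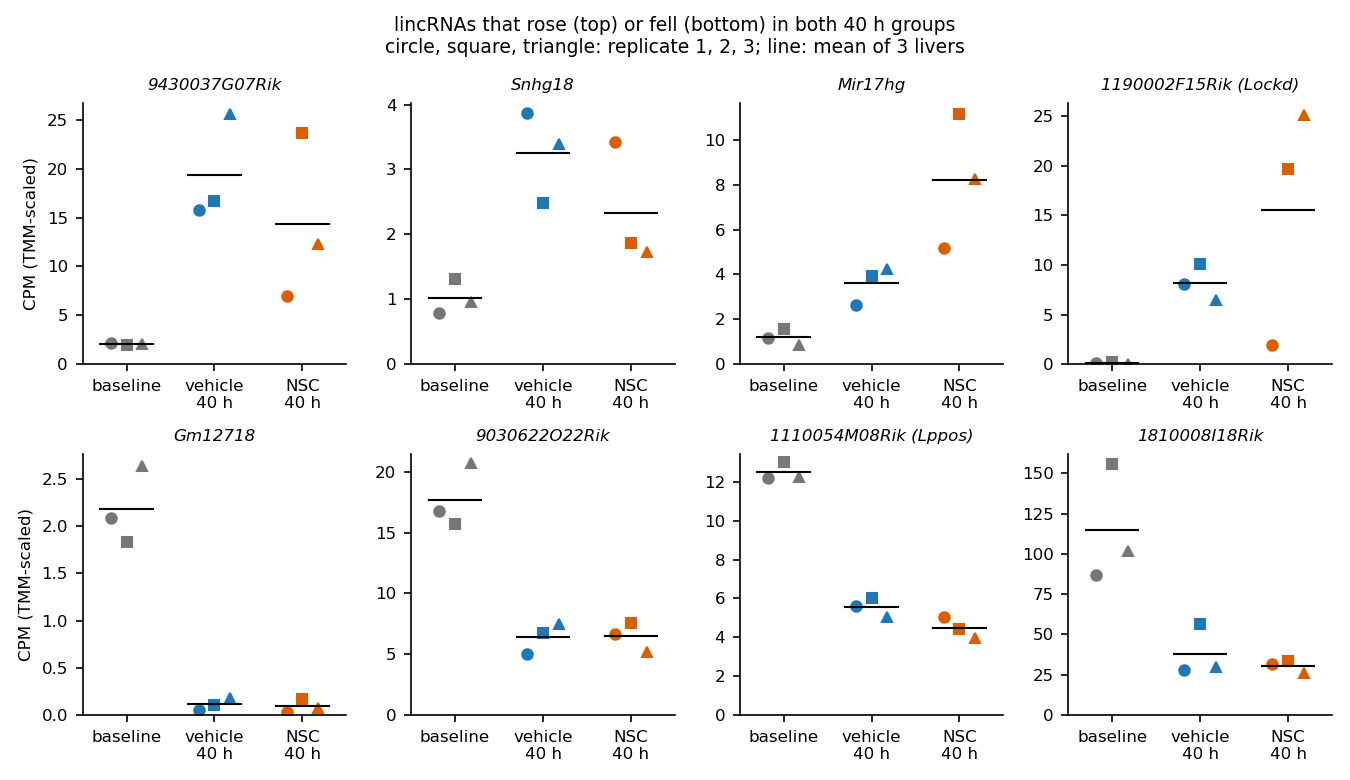
CPM (TMM-scaled, linear axes from 0) of 4 lincRNAs that rose and 4 that fell; each point is 1 liver, marked by replicate number, and lines are means of 3 livers. For each of the 8, the livers at 40 hours do not overlap the baseline livers, and for *1190002F15Rik* and *9430037G07Rik* NSC replicate 1 (circle) is the lowest liver at 40 hours.

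*Gm12718*, on chr4:103382500-103492040, had the smallest p among falling members with vehicle. It met the count rule through the baseline livers alone, so its fall was in part selected. It had 66, 60 and 80 counts at baseline (2.08, 1.83 and 2.64 CPM), 2, 4 and 5 in vehicle livers and 1, 5 and 2 in NSC livers. The baseline livers were far above all others, with log2 fold changes of -4.31 ± 0.53 with vehicle (adjusted p = 0.000255) and -4.52 ± 0.55 with NSC (adjusted p = 0.000168). Its nearest protein-coding gene, *Oma1*, was 18.4 ± 2.16, 16.5 ± 2.82 and 16.9 ± 2.52 CPM in the 3 groups.

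*9030622O22Rik*, on chr2:147944740-148040203 beside *Foxa2*, a transcription factor gene of liver identity, was 16.7, 15.7 and 20.7 CPM at baseline. It was 5.05, 6.71 and 7.49 in vehicle and 6.69, 7.57 and 5.16 in NSC livers. The remnants of both groups overlapped each other and lay below baseline, with log2 fold changes of -1.47 ± 0.21 and -1.45 ± 0.21 (adjusted p = 0.00064 and 0.000447). *Foxa2* was 9 ± 3.9 CPM at baseline, 11.3 ± 1.91 in vehicle and 13.5 ± 4.72 in NSC livers and was called in neither (adjusted p = 0.496 and 0.183).

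*1810008I18Rik*, the most abundant member that fell by more than 1.5 on the log2 scale, was 87.1, 156 and 102 CPM at baseline, 28.2, 56.6 and 29.7 in vehicle and 31.4, 33.5 and 25.8 in NSC livers. All remnants were below all baseline livers, with log2 fold changes of -1.59 ± 0.30 and -1.92 ± 0.30 (adjusted p = 0.00404 and 0.00108). *1110054M08Rik* (*Lppos* in M21), which starts opposite the actin-associated *Lpp*, was 12.5 ± 0.449 CPM at baseline, 5.54 ± 0.499 in vehicle and 4.48 ± 0.561 in NSC livers. It fell in both (-1.17 ± 0.18 and -1.48 ± 0.18, adjusted p = 0.000869 and 0.000162), while *Lpp* was 51.3 ± 2.36, 58.7 ± 1.59 and 57.1 ± 14.1 CPM.

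*Gm29294* was 5.47 ± 0.784 CPM at baseline, 1.97 ± 0.621 in vehicle and 2.17 ± 0.101 in NSC livers, and fell in both (-1.47 ± 0.27 and -1.33 ± 0.27, adjusted p = 0.00243 and 0.00275). The next 3 members are low in count. *Gm16755* had 103 counts over the 3 baseline livers, 4 over the vehicle livers and 20 over the NSC livers, 16 of them in NSC replicate 2 (log2 fold change -4.72 ± 0.88 with vehicle, adjusted p = 0.00296). *Gm15411* had 145, 14 and 41 counts (-3.49 ± 0.69 with vehicle, adjusted p = 0.00397), with 90 of the baseline counts in replicate 2. *RP24-272N10.3* was 1.65 ± 0.351 CPM at baseline, 0.342 ± 0.152 in vehicle and 0.716 ± 0.346 in NSC livers (-2.24 ± 0.45 with vehicle, adjusted p = 0.00444). In the direct comparison of the groups at 40 hours none of these 3 differences was called (adjusted p = 0.212, 0.208 and 0.239). All 16 leading members with vehicle, 8 rising and 8 falling, kept their call when each library was left out in turn. Over all members named by any part of the rule, 8 of 26 calls with vehicle and 13 of 28 with NSC were lost without at least 1 library.

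In NSC-treated mice at 40 hours, 29 members rose (15.5%) and 36 fell (19.3%) against the same baseline livers, beside 18.2% of all genes tested that rose and 16.5% that fell, or 65 members called (34.8%) beside 34.7% of genes. The rises numbered 16, 19 and 17 without baseline replicate 1, 2 or 3 and 16 without NSC replicate 2. For those fits the shares of all genes called are not given, so the drop is not read as particular to lincRNAs. Without NSC replicate 1 the counts were 25 and 38 members, beside 17.8% and 15.9% of genes. The median log2 fold change of members was -0.07, and of all genes 0.01. Beyond 1.5 in size 16 rose (background 5.38%) and 15 fell (background 2.75%), 31 in all (background 8.13%). At an unadjusted p under 0.05, 86 members differed (46%, background 45.2%). The livers did not overlap for 39 members that were higher (background 23.9%) and 48 that were lower (background 23.1%), 87 in all (background 47.1%). The 22 members that reached 20 counts on 1 side of surgery alone supplied 11 of the rises and 6 of the falls, and among the 109 at 20 or more in all libraries 13 rose and 20 fell. Since the comparisons share the baseline livers, their calls are given side by side: 13 members rose and 33 fell in both, 2 rose and 8 fell with vehicle alone, 16 rose and 3 fell with NSC alone, and 112 were called in neither. No member was called in opposite directions. A call in 1 group alone is not a tested difference between groups.

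Among the leading members with NSC that were not yet described, *AI662270* was 1.26, 1.19 and 0.989 CPM at baseline, 2.38, 2.38 and 2.51 in vehicle and 5.37, 3.26 and 2.58 in NSC livers. The groups lay in that order without overlap, and NSC replicate 1 was the highest liver, with a log2 fold change of 1.70 ± 0.31 with NSC (adjusted p = 0.00156; 1.35 without NSC replicate 1). *Gm26737*, on the strand opposite the ubiquitin ligase gene *Rnf26*, had 12 counts over the baseline livers, 82 over the vehicle livers and 72 over the NSC livers. Its log2 fold change with NSC was 2.69 ± 0.71 (adjusted p = 0.0119), a call lost without NSC replicate 2 (2.05, adjusted p = 0.0627). *Rnf26* itself was 11 ± 1.88 CPM at baseline, 20.8 ± 3.43 in vehicle and 22.3 ± 9.84 in NSC livers. *Gm17767* was 1.40 ± 0.37 with NSC (adjusted p = 0.0118).

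*Fendrr*, a lincRNA of lateral mesoderm that is transcribed away from *Foxf1*, was 6.79, 4.64 and 4.72 CPM at baseline, 2.35, 2.9 and 2.29 in vehicle and 1.86, 1.83 and 1.06 in NSC livers. The groups did not overlap, in the order baseline, vehicle, NSC, and the log2 fold change was -1.76 ± 0.29 with NSC (adjusted p = 0.000925; -1.88 without NSC replicate 1). *Foxf1* was 1.5 ± 0.299, 0.969 ± 0.233 and 1.1 ± 0.413 CPM and was not called. Of the 8 endothelial markers, all were detected and their sum was 229 to 237 CPM at baseline, 141 to 217 in vehicle and 169 to 290 in NSC livers, with NSC replicate 1 the highest; the part of this in the *Fendrr* values was not tested. *4732419C18Rik* was 7.57 ± 1.23 CPM at baseline, 4.53 ± 0.915 in vehicle and 2.86 ± 0.691 in NSC livers (-1.40 ± 0.26 with NSC, adjusted p = 0.00174). *D630024D03Rik* was 1.82 ± 0.436, 0.653 ± 0.14 and 0.393 ± 0.22 CPM (-2.19 ± 0.42 with NSC, adjusted p = 0.00234).

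The direct comparison of NSC and vehicle livers at 40 hours asked which lincRNAs the inhibitor altered during regeneration. By edgeR no member was called, rising or falling, beside 6 of 15024 genes (0.0399%), all of them falling. At an unadjusted p under 0.05, 16 members were higher with NSC (8.56%, background 9.3%) and 4 were lower (2.14%, background 10.2%), 20 in all (background 19.5%). The livers did not overlap for 18 members that were higher (9.63%, background 10.2%) and 5 that were lower (2.67%, background 12.2%), 23 in all (background 22.5%). The median log2 fold change of members was 0.20, and of all genes 0.02. DESeq2, and edgeR without the filter on low counts, called the same 2 members, *Mir17hg* and *1200007C13Rik*. The shares of all genes called in those fits are not given, so these calls are not read as a result about members. Without NSC replicate 1, 5 members rose and 1 fell, beside 3.73% and 2.73% of 15390 genes. That liver was set apart in these same data for lying beside the vehicle livers, so leaving it out tends to widen the difference. Over all genes, 994 were then called. The values without it, here and below, are descriptions and do not add support for a difference between the groups.

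*Mir17hg* was higher in all 3 NSC livers than in any vehicle liver, at 8.2 ± 2.99 against 3.6 ± 0.84 CPM. The log2 fold change was 1.19 ± 0.32 (edgeR unadjusted p = 0.0027, adjusted p = 0.101; DESeq2 adjusted p = 0.013). Leaving out NSC replicate 1 gave 1.43 ± 0.28 (edgeR adjusted p = 0.0119). *1200007C13Rik* was lower, at 0.799 ± 0.184 against 2.55 ± 1.19 CPM, with a log2 fold change of -1.68 ± 0.40 (unadjusted p = 0.00118, adjusted p = 0.0898; DESeq2 adjusted p = 0.00853). Leaving that liver out gave -1.70 ± 0.45 (edgeR adjusted p = 0.0436). NSC livers stood at the baseline level of this lincRNA and vehicle livers above it.

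*Snhg12*, which holds snoRNA genes such as *Snora44* and *Snord99*, fell from 6.4 ± 1.01 CPM at baseline to 3.12 ± 0.134 in vehicle livers (log2 fold change -1.03 ± 0.24, adjusted p = 0.00823). NSC livers were 3.66, 5.46 and 5.83 CPM, all above the vehicle livers (0.67 ± 0.24, unadjusted p = 0.0146, adjusted p = 0.164) and overlapping baseline. Without NSC replicate 1 the difference from vehicle was 0.85 ± 0.22 (edgeR adjusted p = 0.0377). *Fam120aos* was 1.68, 1.01 and 1.7 CPM in vehicle and 2.58, 1.93 and 3.56 in NSC livers (0.88 ± 0.31, adjusted p = 0.165), while its divergent partner *Fam120a* was 130 ± 11.9 and 125 ± 7.03 CPM. *2500002B13Rik* and *Gm26782* were also higher without overlap, by 0.82 ± 0.31 and 0.63 ± 0.24 on the log2 scale (adjusted p = 0.18 and 0.188).

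Another 3 members were lower in every NSC liver than in any vehicle liver. *2310043M15Rik* was 1.58, 2.12 and 1.92 CPM in vehicle and 0.899, 0.577 and 0.665 in NSC livers (log2 fold change -1.38 ± 0.45, adjusted p = 0.143). *4732419C18Rik* and *Fendrr* differed by -0.65 ± 0.26 and -0.66 ± 0.29 (adjusted p = 0.195 and 0.234). Another 3 members called when NSC replicate 1 was left out, *A530020G20Rik* (1.58 ± 0.27), *1190002F15Rik* (1.44 ± 0.25) and *2010110K18Rik* (2.03 ± 0.37), are named after their values were seen. For *A530020G20Rik* the NSC livers were 2.04, 11.2 and 8.92 CPM and the vehicle livers 2.88, 2.54 and 4.72. In each of the 3, NSC replicate 1 was below every vehicle liver and NSC replicates 2 and 3 were above.

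**Figure D4:**
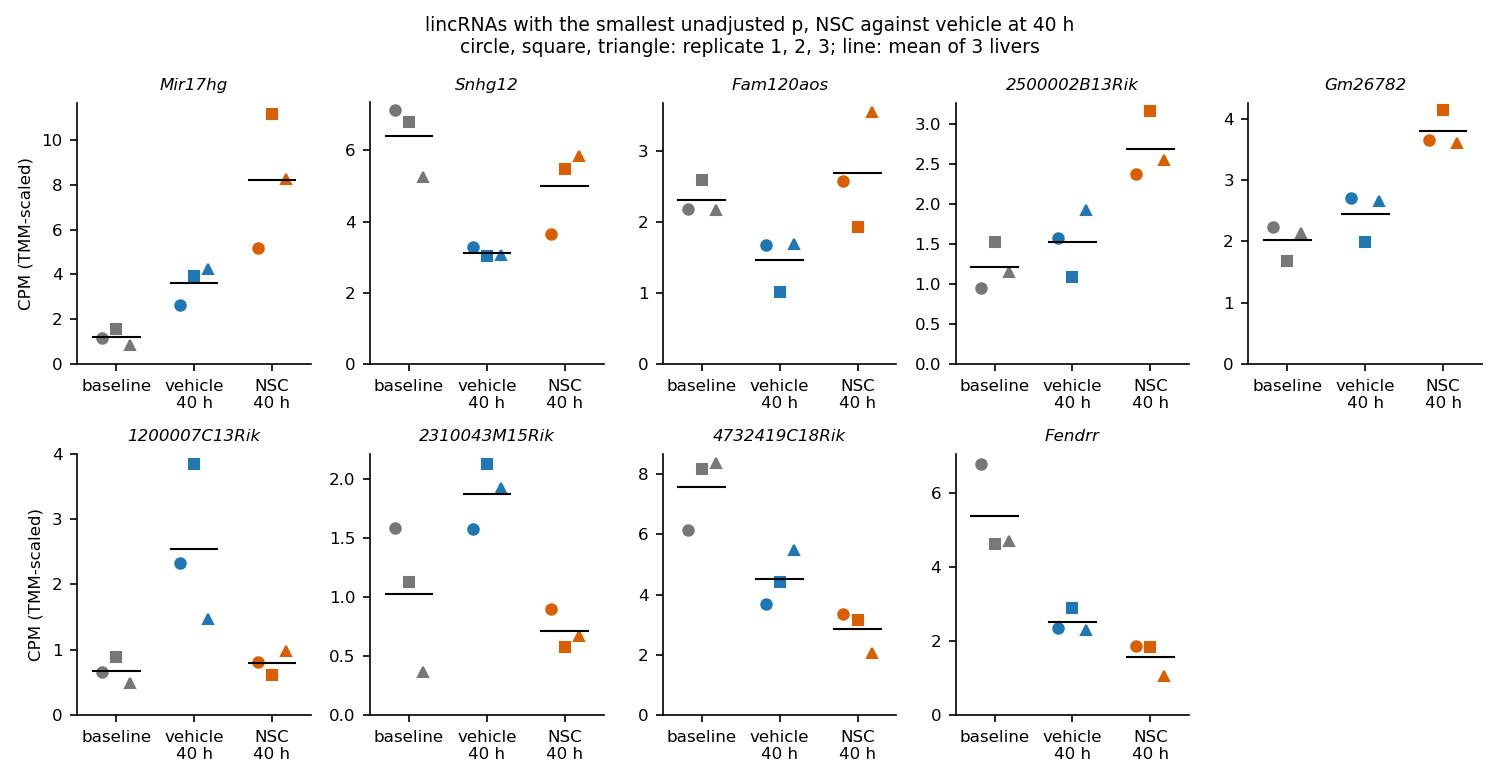
CPM (TMM-scaled, linear axes from 0) of 9 lincRNAs with an unadjusted p under 0.05 whose NSC and vehicle livers did not overlap at 40 hours, the first 5 of those higher and all 4 of those lower with NSC; each point is 1 liver, marked by replicate number, and lines are means of 3 livers. None had an edgeR adjusted p under 0.05, and *1200007C13Rik* in NSC livers lies at its baseline level.

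Among lincRNAs with known roles, the snoRNA hosts that were members did not move as 1 group. Of 20 hosts listed, 17 were in the table and 7 were members. The rest of those in the table, such as *Gas5*, *Snhg3* and *Snhg5*, had another biotype and were not followed. *Snhg18* rose with vehicle and NSC, *Snhg12* fell with vehicle, and *2410004N09Rik* (*Epb41l4aos*) fell from 2.18 ± 0.118 CPM to 1.15 ± 0.184 with vehicle and 1.05 ± 0.348 with NSC (adjusted p = 0.0479 and 0.0195). The vehicle call for *2410004N09Rik* was lost when NSC replicate 2 or any 1 of the 6 baseline and vehicle livers was left out (adjusted p of 0.0527 to 0.135), and the NSC call without NSC replicate 2 (0.0704) or baseline replicate 3 (0.0668). *Snhg1* was 7.39 ± 0.83 CPM at baseline, 8.16 ± 2.76 in vehicle and 12.6 ± 4.57 in NSC livers (log2 fold change with NSC 0.77 ± 0.28, adjusted p = 0.0505; 0.92 and 0.0259 without NSC replicate 1). *Snhg6*, *Snhg7* and *2810008D09Rik* (*Snhg20*) were not called. Hosts carry exons with no long reading frame and are known substrates of nonsense-mediated decay, whereas their snoRNAs, not measured here, are kept.

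Of the 8 core proteins of snoRNA particles in the table, which bind and stabilize snoRNAs, 4 rose with vehicle and 5 with NSC, and none fell. Of all genes tested, 12.7% rose and 11% fell with vehicle and 18.2% rose and 16.5% fell with NSC, and the counts of this and the next 3 lists are to be read against these shares. *Nop58* rose from 17 ± 1.97 CPM at baseline to 37.7 ± 8.1 with vehicle and 55.4 ± 10.8 with NSC. The median log2 fold change of the 8 was 0.64 with vehicle and 0.80 with NSC. Of 10 nonsense-mediated decay factors, 1 fell with vehicle, and 1 rose and 2 fell with NSC. Of 15 nuclear RNA exosome genes, which trim or destroy nuclear RNA, 3 rose with vehicle, and 7 rose and 1 fell with NSC. Of 14 paraspeckle protein genes, none was called with vehicle and 4 rose with NSC, while *Neat1*, their scaffold, was called in neither (log2 fold change 0.48 ± 0.30 and 0.21 ± 0.30). For all 4 lists no gene was called between NSC and vehicle.

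*Pvt1*, which lies 47612 bases downstream of *Myc*, was 1.33, 1.07 and 1.22 CPM at baseline, 1.78, 1.84 and 2.14 in vehicle and 2.19, 2.34 and 2.39 in NSC livers. The groups lay in that order without overlap. It rose with NSC (log2 fold change 0.93 ± 0.26, adjusted p = 0.0145; 0.0533 without baseline replicate 2) and was 0.67 ± 0.26 with vehicle (adjusted p = 0.0781). *Myc* fell, from 12.8 ± 3.38 CPM to 5.98 ± 2.35 with vehicle and 5.01 ± 1.39 with NSC (adjusted p = 0.0269 and 0.00726). *1700020I14Rik*, known as Cyrano and for directing the decay of miR-7, was 51.7 ± 3.1 CPM at baseline, 48.2 ± 8.82 in vehicle and 68.6 ± 12.9 in NSC livers and was called in neither (adjusted p = 0.707 and 0.084). *Oip5*, its neighbor and a centromere gene, rose from 0.0516 ± 0.0469 CPM to 4.29 ± 0.3 and 8.29 ± 3.9. *Meg3* and the X inactivation center lincRNAs *Jpx* and *Ftx* were not called in any comparison. No member was on the list of 11 inflammation-linked lincRNAs.

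Many members start beside a protein-coding gene. Of the 173 with a strand in M21, 67 had a divergent protein-coding neighbor, on the opposite strand with start sites within 5000 bases, and for 53 it was within 1000. Both genes were tested in 66 pairs. With vehicle 18 of the lincRNAs and 12 of the neighbors in these pairs were called, beside 23.7% of all genes tested, and in 5 pairs both were, in the same direction each time. With NSC 21 and 26 were called, beside 34.7% of all genes, 11 pairs in the same direction and 1 in opposite directions. The log2 fold changes of lincRNA and neighbor had the same sign in 42 of the 66 pairs with vehicle and in 38 with NSC. Across the 66 pairs, they had a Pearson r of 0.729 with vehicle and 0.778 with NSC. These fell to 0.385 and 0.424 over 65 pairs without *2010110K18Rik* and *Cdc25c*. The pairs share the same libraries, and between NSC and vehicle r was 0.195, or 0.103 without that pair and 0.411 over the 53 pairs within 1000 bases. For members and their nearest protein-coding gene without overlap, a set of 126 pairs that includes divergent ones, r was 0.225 with vehicle and 0.259 with NSC. Between NSC and vehicle it was 0.276 in that set.

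**Figure D5:**
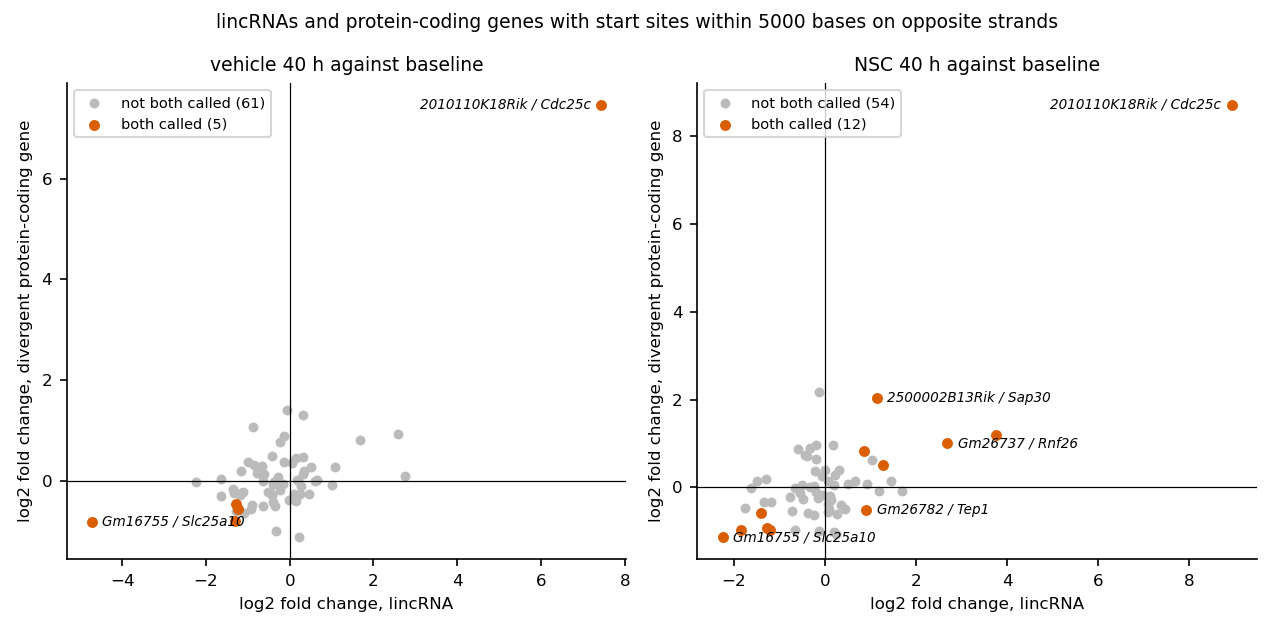
Log2 fold change of 66 lincRNAs (horizontal) and of their divergent protein-coding neighbors (vertical) at 40 hours against baseline; colored pairs have both genes at an edgeR adjusted p under 0.05. Both were called in 5 pairs with vehicle and in 12 with NSC, of which *Gm26782* and *Tep1* moved in opposite directions, and the pair at the top right, *2010110K18Rik* and *Cdc25c*, lies far from the rest.

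*Cdc25c*, the phosphatase gene that activates CDK1 at mitotic entry, starts 276 bases from *2010110K18Rik*. It was 0.0207 ± 0.0179 CPM at baseline, 4.41 ± 1.27 in vehicle and 10.5 ± 7.99 in NSC livers (adjusted p = 0.00581 and 0.00186), so that both were near or at 0 before surgery. *2500002B13Rik* starts 194 bases from *Sap30*, a subunit of the SIN3 histone deacetylase complex. The lincRNA was 1.21 ± 0.293, 1.53 ± 0.417 and 2.69 ± 0.414 CPM and *Sap30* 1.16 ± 0.0775, 2.87 ± 0.484 and 4.81 ± 1.52 at baseline, in vehicle and in NSC livers. *Sap30* rose in both (log2 fold change 1.30 and 2.04), and the lincRNA with NSC (1.15 ± 0.31, adjusted p = 0.0135), a call lost without NSC replicate 2 (0.0516) or baseline replicate 1 (0.0567) or 3 (0.0514).

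Pairs also fell together. *Gm17586* starts 168 bases from *Mafg*, a small Maf transcription factor gene, and the lincRNA fell by 1.30 and 1.27 on the log2 scale with vehicle and NSC while *Mafg* fell by 0.80 and 0.93 (adjusted p = 0.00515 and 0.00162). *Gm16755* starts 3258 bases from the mitochondrial dicarboxylate carrier gene *Slc25a10*, which went from 215 ± 24.2 CPM to 123 ± 26.3 and 97.9 ± 21.7 (adjusted p = 0.0133 and 0.00155). The fall of *Gm16755* with NSC (adjusted p = 0.0276) was lost without NSC replicate 1 or 3 or any 1 baseline liver (0.0523 to 0.0764). The 1 pair in opposite directions was *Gm26782*, up by 0.91 on the log2 scale with NSC (adjusted p = 0.0133; 0.0523 without baseline replicate 2), and the telomerase-associated *Tep1*, down from 23.5 ± 1.5 to 16.6 ± 3.14 CPM (adjusted p = 0.0482). *Snhg18* and *Sema5a*, and *1110054M08Rik* and *Lpp*, are pairs in which the lincRNA was called with vehicle and the neighbor was not. In all, 38 members overlapped a protein-coding gene, 30 of them on the other strand. Whether counting used the strand is not given in the sources used here, so reads of such a pair may not be separated.

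By sequence, the 33 members that fell in both groups were shorter than the 112 called in neither (median 1567 against 2316 bases) and of higher GC content (50.8% against 47.3%, over the 30 and 103 with a value). Their median baseline level was 4.22 CPM, against 1.6 for members called in neither and 0.457 for the 13 that rose in both. The 13 had a median length of 2138 bases and a median GC content of 47%. These are descriptions of small sets whose calls also depend on level.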

How the data were processed

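Polyadenylated RNA of 9 mouse livers was sequenced from stranded TruSeq libraries. The authors made gene counts with the MAP-RSeq pipeline, for which the submitters' notes name STAR 2.6.1, Subread 1.5.1 and featureCounts. Deposited count and FPKM columns were used as given, and the FPKM values, which the study's text calls RPKM, were used only to compare levels between genes. The notes name the build hg38, but the gene identifiers and coordinates are those of mouse GRCm38, and the strand setting of the counting is not given in the sources used here. Strand, exons and GC content came from GENCODE M21 by gene identifier (173 of 187 members).

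Counts were analysed with edgeR 4.0.16 (R 4.3.3): TMM normalization, filterByExpr, a robust quasi-likelihood fit of all 9 libraries with 1 coefficient per group, and Benjamini-Hochberg adjustment over 15024 genes. Every adjusted p in the text is from this edgeR fit unless DESeq2 (1.42.0) is named, errors of log2 fold changes are SE, errors of CPM are SD over 3 livers, and CPM were scaled by TMM. DESeq2, other filters and scalings, a GC correction, a replicate block and leaving out each library were the alternatives. No row lacked a gene name. Scripts were tested on simulated data, and no 2 libraries of the same group were duplicates. Pairs from different groups were not checked.

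Named members were the 8 rising and 8 falling with the smallest adjusted p and no overlap in each comparison with baseline, up to 5 per direction between NSC and vehicle with an unadjusted p under 0.05 and no overlap, the 8 highest by FPKM, members on role lists, the 3 nearest each side of the count limit, and divergent neighbors. Members and lists were chosen with earlier results of these data known.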

Additional observations from a re-analysis of the deposited data

How the results depend on the processing

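With a count of 10 or more in every library (142 members) 8 members rose with vehicle and 19 with NSC; with 50 or more in at least 3 libraries (111 members) 7 rose with vehicle, and 18 rose and 23 fell with NSC. With 20 or more in all 9 libraries (109 members) 5 rose and 26 fell with vehicle, and 13 rose and 20 fell with NSC. Fewer members enter under these limits, and not every count is given for each limit. No share of all genes under the same limit stands beside these counts, so they are not results about members. Beyond a log2 fold change of 1.5 in size 16 fell with vehicle, and 16 rose and 15 fell with NSC. Between NSC and vehicle 1 member rose and 1 fell by DESeq2, and 1 and 1 without the filter on low counts, with no share of all genes given beside them. Leaving out 1 library at a time gave 10 to 19 rises and 25 to 47 falls with vehicle, 16 to 31 and 24 to 38 with NSC, and 0 to 5 and 0 to 1 between NSC and vehicle. Apart from the fit without NSC replicate 1, the shares of all genes in these fits are not given. Of the counts of members called, 102 stayed within 1.5 times their main value and 24 did not, and no named call reversed.

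With the replicate number as a block (replicate block), 15 members rose and 36 fell with vehicle, 28 rose and 35 fell with NSC, and none was called between NSC and vehicle. Shares of all genes in this fit are not given either. Deviations of same-numbered samples correlated at -0.0479 to 0.134, not every sample correlated best with its own number, and the labels tie no number to a mouse, so the numbers were not taken as pairs. The median member was at 1.64 CPM, and the size of difference that 3 livers a group can show at that level was not tested.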
